A study of Mus musculus with 4 samples.

Results

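The lysosome breaks down protein, glycan and lipid, and 35 genes of it were followed across the cell types of the mouse hippocampus after 2VO, the occlusion of both common carotid arteries that lowers blood flow to the forebrain. The genes were chosen by symbol as well-known parts of the organelle, with earlier results of these data known. All 35 were present among the 31053 genes listed and were found in at least 20 cells. By role they were 12 proteases, 7 glycosidases, 4 lipid hydrolases, 4 cofactors and sterol transport proteins, and 8 membrane proteins. Whole hippocampi of male C57BL/6 mice were taken on the seventh day after surgery. The occlusion of the 2VO mice was transient, and blood flow resumed when the clamps were released. The sham mice had the clamps placed on the arteries and released at once, and both groups were given as 12 weeks old. The study made 1 library per mouse from 2 sham and 2 2VO mice. Sham 1, sham 2 and 2VO 1 were used, and 2VO 2 was not analysed here.

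The 3 libraries differed in depth. They held 5109, 5126 and 3912 cells with at least 650 detected genes, or 14147 in all, and the median number of unique molecular identifiers (UMIs) per cell was 8191, 5249 and 2311 for sham 1, sham 2 and 2VO 1. Mitochondrial transcripts made up 3.38, 4.09 and 5.89% of the UMIs. Between 12 and 15 barcode sequences were shared by each pair of libraries. Cells fell into 29 clusters, of which 28 carried the markers of 1 of 14 classes and 1 stayed unnamed. The phagocytes were microglia and macrophages. The glia were astrocytes (ASTs), oligodendrocytes (OLGs) and their precursors (OPCs), and the ventricular cells were ependyma (EPNs) and choroid plexus epithelium (CPECs). Vessels gave endothelium (ECs), smooth muscle (VSMCs), pericytes (PERs) and fibroblast-like leptomeningeal cells (VLMCs). Neuronal classes were precursors (NPCs), glutamatergic neurons (GLUTNs) and Cajal-Retzius neurons. The most cells were OLGs, with 1480, 1091 and 874, and ECs, with 1033, 1616 and 1182 cells. EPNs had 9 cells in 2VO 1 and were not tested.

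Lysosomal hydrolases are made in the endoplasmic reticulum, tagged with mannose 6-phosphate in the Golgi and carried to the lysosome, where the proton pump V-ATPase keeps the lumen acid. Sphingolipids are degraded there with the help of saposins, which are cut from prosaposin, and cholesterol is handed from NPC2 to NPC1 and leaves through the membrane. The transcription factors TFEB and TFE3 bind an E-box-like element whose core is CACGTG near the start of many lysosomal genes. In brain, the cells best known for a large lysosomal load are microglia and macrophages, the phagocytes of the parenchyma and of its borders.

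Promoters of 31 of the 35 genes were matched in RefSeq (build GRCm38.p6), each from 250 bases before to 50 bases after the annotated start. CACGTG, which reads the same on both strands, was present in 10 of the 31 genes (32.3%) and in 2187 of all 27025 genes with a promoter of this length (8.09%). It lay in Ctsa, Ctsd, Ctsf, Ctsl, Gaa, Gla, Glb1, Lamp1, Lgmn and Mcoln1. A longer palindrome centred on the same letters, the strict form of the element, was in 0 of the 31 and in 100 of all genes (0.37%). A match describes the letters of the window and does not show that a factor is bound. The windows of 4 genes are given 5′ to 3′ on the coding strand, with CACGTG in capitals: Ctsd, whose level was above both sham libraries in every class tested, Lamp1, which had the most matches, Mcoln1, the channel gene with a pair of matches, and Psap, a gene called in the same direction as Ctsd whose window held none.
Ctsd: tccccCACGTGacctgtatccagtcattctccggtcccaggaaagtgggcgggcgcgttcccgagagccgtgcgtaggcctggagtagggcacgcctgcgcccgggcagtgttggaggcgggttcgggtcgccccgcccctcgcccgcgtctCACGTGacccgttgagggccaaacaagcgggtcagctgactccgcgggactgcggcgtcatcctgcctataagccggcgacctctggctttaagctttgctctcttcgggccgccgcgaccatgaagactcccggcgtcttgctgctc
Lamp1: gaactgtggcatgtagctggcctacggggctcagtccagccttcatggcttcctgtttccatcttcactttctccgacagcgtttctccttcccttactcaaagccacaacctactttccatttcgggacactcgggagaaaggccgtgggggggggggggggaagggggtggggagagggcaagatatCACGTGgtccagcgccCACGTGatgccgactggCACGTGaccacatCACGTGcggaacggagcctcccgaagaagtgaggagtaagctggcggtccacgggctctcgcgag
Mcoln1: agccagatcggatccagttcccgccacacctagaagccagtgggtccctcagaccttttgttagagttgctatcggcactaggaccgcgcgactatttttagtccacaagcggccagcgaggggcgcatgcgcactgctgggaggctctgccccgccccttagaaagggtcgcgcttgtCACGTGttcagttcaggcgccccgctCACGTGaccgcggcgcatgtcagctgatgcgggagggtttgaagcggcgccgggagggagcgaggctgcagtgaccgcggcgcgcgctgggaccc
Psap: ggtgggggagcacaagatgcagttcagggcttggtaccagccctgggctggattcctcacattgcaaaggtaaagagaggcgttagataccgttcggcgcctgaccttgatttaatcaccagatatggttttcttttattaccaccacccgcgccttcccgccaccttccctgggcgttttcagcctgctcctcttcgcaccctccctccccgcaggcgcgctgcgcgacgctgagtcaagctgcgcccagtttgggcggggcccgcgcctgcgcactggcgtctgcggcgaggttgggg
In these windows the base before the start is −1. The matches of Ctsd (chr7:142387778-142388077, minus strand) began at −245 and −98, those of Lamp1 (chr8:13158911-13159210, plus strand) at −61, −45, −28 and −15, and those of Mcoln1 (chr8:3500269-3500568, plus strand) at −71 and −45. The Psap window was chr10:60277378-60277677 on the plus strand. The Ctsd gene itself spans 142375911 to 142388038 of chromosome 7, and Psap spans 60277627 to 60302597 of chromosome 10.

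Lysosomal transcripts were most abundant in the 2 phagocyte classes. Summed over the 35 genes, microglia held 25916 counts per 1000000 UMIs of the class (CPM) in sham 1 and 23983 in sham 2, and macrophages held 17951 and 20435. VLMCs followed with 7811 and 6671, and NPCs were lowest with 2119 and 1961. By the sham mean, macrophages were the highest class for 15 of the genes, microglia for 10, OLGs for 3, CPECs and VLMCs for 2 each, and ASTs, ECs and Cajal-Retzius neurons for 1 each. The ranges of microglia and macrophages did not overlap, and both lay above every other class. These values describe 2 libraries, and no test was made between classes.

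**Figure D1:**
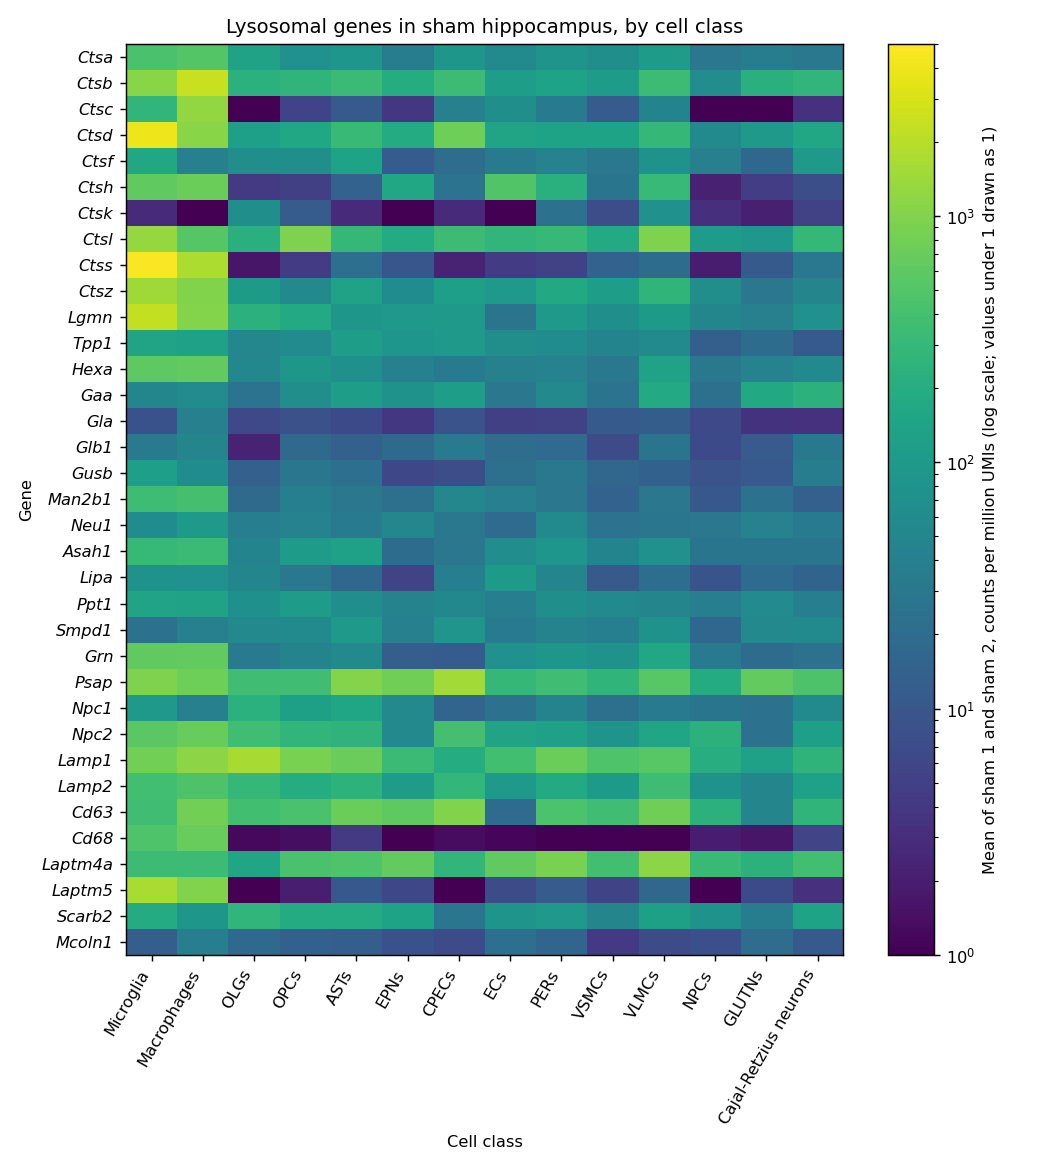
Level of each of the 35 lysosomal genes in 14 cell classes, as the mean of sham 1 and sham 2 on a log colour scale (genes in rows by role, classes in columns). The microglia and macrophage columns are the brightest, that is the highest, for most proteases, while Lipa is highest in ECs and Psap in CPECs.

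Among the proteases, Ctsc, which encodes the dipeptidyl peptidase cathepsin C, had the largest gap between its highest class and the next. It stood at 1275 CPM in macrophages of sham 1 and 1257 of sham 2, against 310 and 232 in microglia. Ctsd, which encodes the aspartic protease cathepsin D, was at 4340 and 3807 CPM in microglia and at 1218 and 1005 in macrophages. The most even proteases were Tpp1, a tripeptidyl peptidase gene, with a 13.3-fold range between its highest and lowest class, and Ctsf, with 13.4-fold. Among the glycosidases, Gla (alpha-galactosidase A) had the widest gap by its means, but its macrophage values of 71.6 and 9.67 CPM spanned those of VLMCs, 10.2 and 14.2. Neu1, the sialidase gene, was the most even glycosidase, with a 4.91-fold range.

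Other roles had other leading classes. Lipa, the acid lipase gene, was at 103 and 104 CPM in ECs, above the 92 and 62 of microglia. Ppt1, a thioesterase gene, varied by 3.75-fold over the classes and had the smallest range of the 35 genes. Psap, which encodes prosaposin, was highest in CPECs, with 1650 and 1404 CPM, ahead of ASTs with 1027 and 1002. Npc1, the sterol transporter gene, was highest in OLGs at 241 and 217 CPM and reached 163 and 147 in ASTs. OLGs also led for the membrane protein genes Lamp1, with 1726 and 1509 CPM, and Scarb2, the receptor that carries glucocerebrosidase, with a mean of 273 against 188 in OPCs. Laptm4a was highest in VLMCs at 1178 and 1129 CPM and had the smallest range of the membrane protein genes, 7.53-fold. Mcoln1 had the largest gap of that role by its means, 38.3 CPM in macrophages against 22.4 in ECs, and those classes overlapped. Laptm5, a gene of the haematopoietic lineages, was at 1512 and 1855 CPM in microglia and 888 and 1092 in macrophages.

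The question of the design is how each cell class differs a week after the occlusion. UMIs were summed per library and class, scaled by TMM factors, and 2VO 1 was tested against the 2 sham libraries with edgeR's quasi-likelihood test in 13 classes. Calls needed a fold above 1.5 together with an adjusted p below 0.05. The lone 2VO library was assumed to vary like the sham libraries, so the p-values measure the spread between 2 mice, and surgery, mouse, depth and library cannot be told apart. The same 3 libraries entered every class, so likeness between classes is not independent evidence. Each level given from here on is in CPM with TMM scaling, in the order sham 1, sham 2 and 2VO 1, and each change is a log2 fold change with its standard error (SE).

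Of 400 pairs of a lysosomal gene and a class that could be tested, 20 were called higher in 2VO 1 and 5 lower. Over all genes and the 13 classes, 2.57% of pairs were called higher and 3.64% lower. The called lysosomal pairs came from 13 of the 35 genes, and 22 genes were called in no class. OLGs had 6 higher and 3 lower of 35, where 4.61% of all genes tested were called higher and 11.4% lower. OPCs had 5 higher and 1 lower of 35, against 7.47 and 8.66%. In CPECs 3 of 35 were called higher and 0 lower, against 3.12 and 6.56%. ECs had 4 higher and 1 lower of 34, with 2.39 and 0.654% of all genes. In NPCs 2 of 26 were called higher and 0 lower, where 1.94 and 6.46% of all genes were. The share called higher was above that of all genes in each of these 5 classes, which are the classes with a call. As the genes were chosen with earlier results of these data known, this excess is a description and no test. Ctss and Laptm5, genes of phagocytes, gave 4 each of the 20 pairs called higher. With marked doublets left out 0% of all genes tested in OLGs were called, so no lysosomal gene was. The lowest edgeR adjusted p of the 9 was then 0.0502. The OPC calls were lost when barcodes with at least 200 genes were used, and the CPEC calls when cells were thinned to 1000 UMIs. In each of these settings 0% of all genes tested in the class were called. In NPCs the DESeq2 test gave Psap an adjusted p of 0.0729 and gave none for Ctsd.

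By the same edgeR test no lysosomal gene was called in the other 8 classes. In microglia 3.29% of all genes were called higher and 1.72% lower, and in macrophages 5.13 and 0.807%. ASTs had 0.00943 and 0%, PERs 0 and 0%, VSMCs 0.233 and 0%, VLMCs 0.672 and 0%, GLUTNs 1.14 and 0.463%, and Cajal-Retzius neurons 0.585 and 0.312%. Unadjusted p-values were under 0.05 for 11 of 34 lysosomal genes in microglia, where 24.2% of all genes had one, 0 of 28 in macrophages (16.9%), 4 of 33 in ASTs (13%) and 5 of 33 in PERs (14.2%). VSMCs had 10 of 33 (14.4% of all genes), VLMCs 3 of 26 (7.41%), GLUTNs 2 of 26 (15.3%) and Cajal-Retzius neurons 3 of 22 (20.2%). Other tools and filters made calls in several of these classes, as given in the closing part.

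The median log2 fold change of the tested lysosomal genes was −0.04 in microglia, −0.09 in macrophages and −0.02 in OLGs, beside a median within 0.02 of 0 for all genes in these classes. It was 0.16 in OPCs (−0.06 without sham 2), 0.14 in ASTs (−0.01 without sham 1), 0.30 in CPECs, 0.24 in ECs, 0.23 in PERs, 0.42 in VSMCs, 0.29 in VLMCs, 0.78 in NPCs, 0.45 in GLUTNs and 0.40 in Cajal-Retzius neurons. The median of all genes was between −0.16 and 0.02 in these 10 classes, with the lowest in NPCs. The values without a sham library cover all 35 lysosomal genes, with no filter on low counts. With every library and no such filter the medians were 0.11 in OPCs and 0.04 in ASTs. The level in 2VO 1 was above both sham libraries for 28 of 35 lysosomal genes in CPECs (80%), where 40.8% of all genes were, and for 19 of 26 in NPCs (73.1%, against 41.3%). ECs had 22 of 34 (64.7%, against 40.3%), VSMCs 22 of 33 (66.7%, against 39.7%), ASTs 19 of 33 (57.6%, against 39.5%), OPCs 19 of 35 (54.3%, against 43.9%) and PERs 18 of 33 (54.5%, against 40.4%). The share was 15 of 26 in VLMCs (57.7%, against 36%) and in GLUTNs (against 41.7%), and 14 of 22 in Cajal-Retzius neurons (63.6%, against 40.8%). It was below that of all genes in 3 classes. These were OLGs with 14 of 35 (40%, against 43.6%), macrophages with 8 of 28 (28.6%, against 38.3%) and microglia with 11 of 34 (32.4%, against 40.9%). These shares use TMM scaling and depend on it. On plain CPM, without TMM factors, Cd63 was above both in 8 classes against 3, and Tpp1 below both in 0 against 4. Several lysosomal genes changed position in OLGs and in microglia, and none was above both in fewer classes than with TMM.

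**Figure D2:**
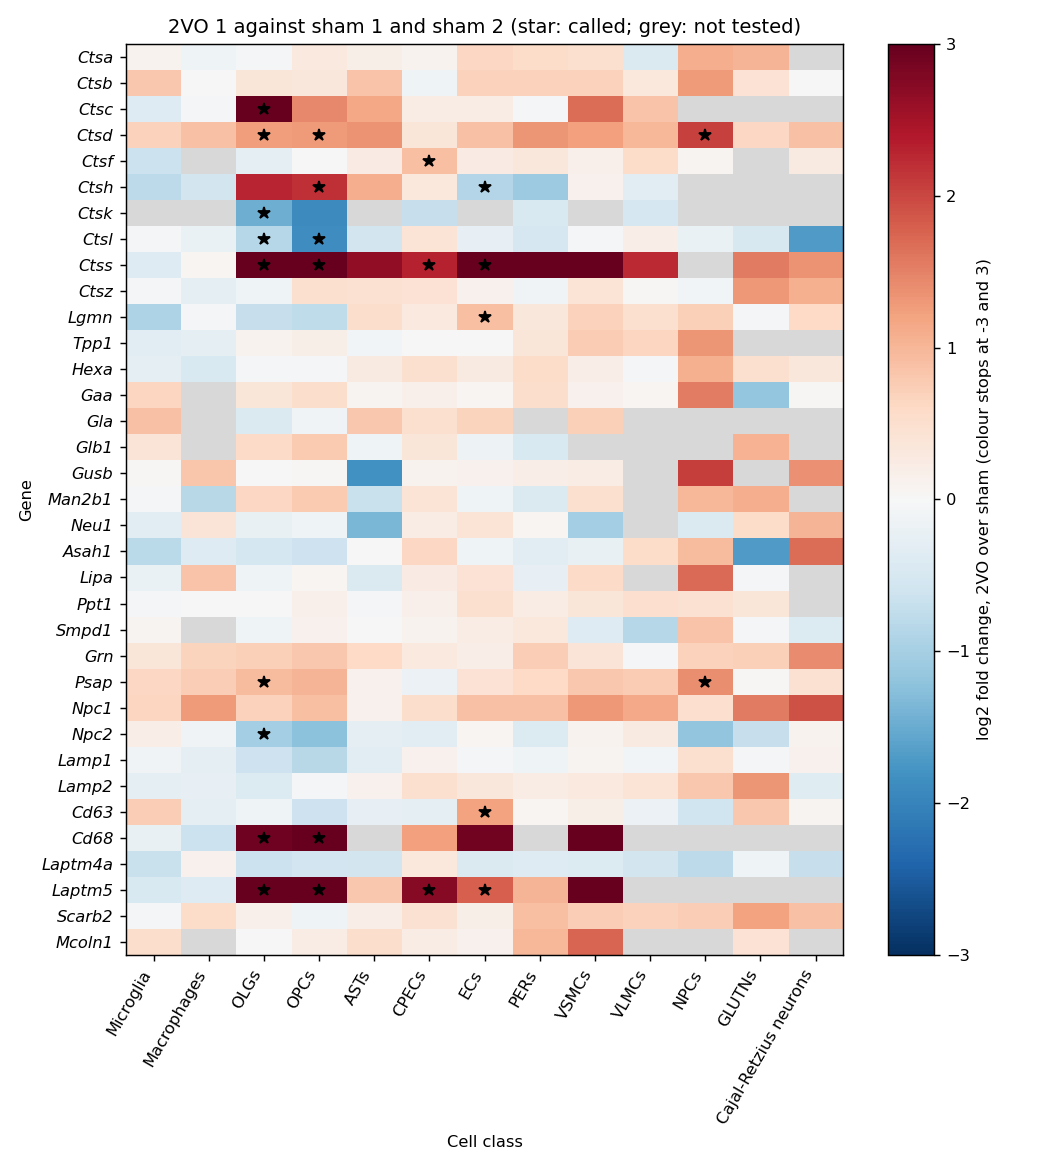
Log2 fold change of 2VO 1 against the sham libraries for each lysosomal gene (rows) in 13 cell classes (columns), with a star at the 25 pairs called. The Ctsd row is above 0 in all 13 classes, and the Ctss, Cd68 and Laptm5 rows hold the largest values outside microglia and macrophages.

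Ctsd stood higher in 2VO 1 in every class tested and was called in 3. In OLGs it measured 144, 127 and 322 CPM, a change of 1.25 ± 0.17 (SE; edgeR adjusted p = 0.0308). OPCs had 191, 148 and 413 CPM, with a change of 1.28 ± 0.35 (SE; edgeR adjusted p = 0.026). NPCs had the largest change, from 66.3 and 63.6 to 269 CPM, or 2.04 ± 0.34 (SE; edgeR adjusted p = 0.00717), on 74, 29 and 23 UMIs. In each of these classes 2VO 1 lay well above a pair of sham libraries that were close together.

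The other 10 classes had the same order for Ctsd without a call. Microglia measured 4575, 4041 and 6929 CPM (edgeR adjusted p = 0.115), macrophages 1473, 1296 and 2539 (0.465), and ASTs 323, 351 and 857 (0.257). In ECs it was 172, 128 and 277 CPM (edgeR adjusted p = 0.0507), and in VSMCs 160, 136 and 344 (0.0633). PERs had 139, 157 and 372 CPM, VLMCs 296, 373 and 670, and CPECs 846, 782 and 1053. GLUTNs measured 112, 104 and 166 CPM, and Cajal-Retzius neurons 216, 167 and 355. Ctsd was thus above both sham libraries in 13 of 13 classes, with log2 fold changes from 0.37 in CPECs to 2.04 in NPCs and a median of 0.99. Of 1665 genes tested in every class, 40 (2.4%) stood above both in all 13. In EPNs, which were not tested, plain CPM without TMM scaling were 237, 142 and 477.

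The order of the Ctsd levels was also seen within each cluster of OLGs and ECs. In plain CPM, OLG cluster 0 had 133, 124 and 318, cluster 3 had 116, 114 and 392, cluster 8 had 123, 105 and 255, and cluster 24 had 112, 112 and 480. The 6 EC clusters each had their highest Ctsd level in 2VO 1. The microglia divided: cluster 10 had 3660, 3977 and 7599 CPM, whereas cluster 17 had 4637, 3738 and 4586. Cluster 10 held 35.8, 43.8 and 95.8% of the microglia of the 3 libraries. Cluster 17 held 136, 113 and 15 cells, so its 2VO 1 level rests on few cells.

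Psap was called higher in OLGs and NPCs. OLGs measured 429, 384 and 791 CPM, a change of 0.96 ± 0.17 (SE; edgeR adjusted p = 0.0322), and the 4 OLG clusters each had their highest level in 2VO 1, between 676 and 1010 plain CPM where the sham values were between 281 and 387. NPCs had 211, 217 and 561 CPM, or 1.39 ± 0.23 (SE; edgeR adjusted p = 0.00668), on 235, 99 and 48 UMIs. Psap was above both sham libraries in 11 of 13 classes. In CPECs, its highest class, it was at 1726, 1586 and 1474 CPM, below both, but with plain CPM the CPEC order turned, to 1650, 1404 and 1735. Of the 1665 genes tested in every class, 12% were above both in at least 11.

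Npc1 was above both sham libraries in 13 of 13 classes and was called in none. Its smallest unadjusted p was in Cajal-Retzius neurons, where 79.7, 49.6 and 254 CPM (21, 8 and 15 UMIs) gave an edgeR adjusted p of 0.077. In OLGs it measured 269, 235 and 409 CPM (edgeR adjusted p = 0.0558) and in OPCs 139, 132 and 255 (0.0653). GLUTNs had 29.2, 21.9 and 73.6 CPM on 11, 22 and 8 UMIs. Across classes its log2 fold change ran from 0.12 in ASTs to 1.90 in Cajal-Retzius neurons, with a median of 0.88. Grn, which encodes progranulin, a partner of prosaposin, was above both in 12 of 13 classes with a median of 0.67 and no call, where 6.67% of genes were above both in at least 12. Scarb2 was above both in 11 of 13 classes, also with no call, and below both in microglia at 193, 200 and 190 CPM, an order that did not hold on plain CPM. The orders of Ctsd, Npc1 and Grn were the same on plain CPM.

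**Figure D3:**
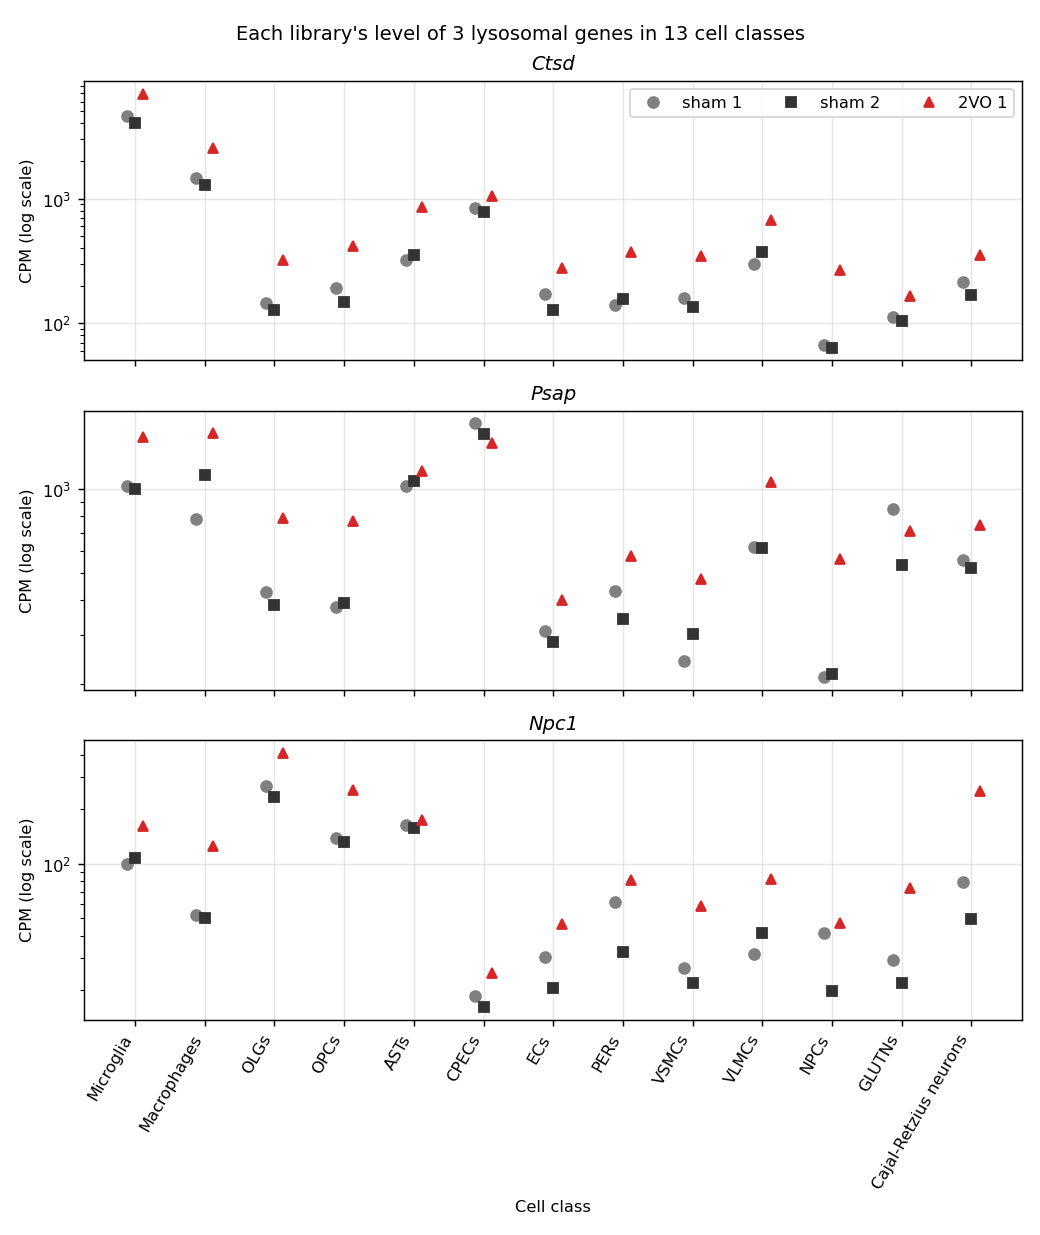
Level of 3 lysosomal genes in each library (CPM with TMM scaling, log axis) for 13 cell classes, 1 point per library. The 2VO 1 point of Ctsd is the highest of the 3 in every class, from 166 CPM in GLUTNs to 6929 in microglia.

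Genes that mark phagocytes in the sham libraries were called higher in classes that hardly held them. Ctss encodes cathepsin S, a protease of antigen-presenting cells, and its sham mean by plain CPM ran from 1.65 in OLGs to 4741 in microglia. It was called in 4 classes. OLGs measured 2.29, 1.36 and 51.5 CPM (40, 12 and 153 UMIs), a change of 4.74 ± 0.34 (SE; edgeR adjusted p = 0.0308). OPCs had 8.85, 0.799 and 122 CPM, or 4.34 ± 0.49 (SE; edgeR adjusted p = 0.000111), and without sham 1 the change in OPCs was 7.13, on 2 sham UMIs. ECs had 3.72, 5.34 and 47.1 CPM, or 3.34 ± 0.30 (SE; edgeR adjusted p = 0.000433). CPECs reached 12.8 CPM from 2.64 and 2.47, or 2.31 ± 0.31 (SE; edgeR adjusted p = 1.78e-05). Within microglia Ctss was at 5105, 4925 and 3825 CPM and was not called. In each microglial cluster 2VO 1 was instead the highest. Plain CPM were 3413, 3493 and 3981 in cluster 10 and 5468, 5099 and 5747 in cluster 17. The part of the cluster shares in the class level was not tested.

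Laptm5, a lysosomal membrane protein gene of immune cells, was called in the same 4 classes as Ctss. It measured 0.975, 0.794 and 22.2 CPM in OLGs (4.60 ± 0.42 SE, edgeR adjusted p = 0.0308) and 4.19, 0.4 and 36.4 in OPCs (3.63 ± 0.58 SE, edgeR adjusted p = 0.00201). CPECs had 0.81, 0.942 and 5.68 CPM (2.72 ± 0.50 SE, edgeR adjusted p = 0.000598), and ECs 8.44, 6.55 and 25.6 (1.79 ± 0.32 SE, edgeR adjusted p = 0.0208). Cd68, the macrosialin gene, was called in OLGs at 0.861, 1.81 and 9.76 CPM (2.91 ± 0.65 SE, edgeR adjusted p = 0.0437) and in OPCs at 2.15, 0.799 and 15.7 CPM (3.19 ± 0.72 SE, edgeR adjusted p = 0.0147). Ctsc was called in OLGs alone, at 0.516, 0.907 and 9.08 CPM (3.71 ± 0.64 SE, edgeR adjusted p = 0.0313). Each of these levels in 2VO 1 was far below that of the same gene in microglia. Leaving out sham 1 gave changes of 6.29 for Laptm5 and 4.18 for Cd68 in OPCs, and leaving out sham 2 gave 2.94 for Laptm5 and 3.61 for Ctss. In VSMCs the same genes were near the threshold, with Laptm5 at 10.7, 1.15 and 67.6 CPM (edgeR adjusted p = 0.0511), Ctss at 29.3, 0.576 and 189 (0.0563), and Cd68 at 1.33, 0 and 24.9.

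Transcripts of microglia that have no lysosomal role moved with them. A list of 13 microglial transcripts, among them C1qa, C1qb, Tyrobp and P2ry12, summed to 16.8, 17.3 and 340 CPM in OLGs, where 13 of 13 were called higher. In OPCs the sum was 70.5, 15.2 and 672 CPM, in ECs 36, 35.1 and 351, and in CPECs 18, 20.7 and 99.7, with 12 of 13 called higher in each. The sum in 2VO 1 was 1.39% of that of microglia for OLGs, 2.76% for OPCs, 1.44% for ECs and 0.409% for CPECs, and 0.0423% at sham 1 for OLGs. In microglia themselves it went from 39677 and 42765 to 24386 CPM, with 3 of 13 called lower.

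The Ctss level stood in a like proportion to this sum in the classes where it was called. In 2VO 1 its level was 15.7% of the sum in microglia, 15.1% in OLGs, 18.2% in OPCs, 13.4% in ECs and 12.8% in CPECs. The 13 transcripts of a class, taken in the ratio found in microglia of the same library, correspond to 53.3 CPM of Ctss in OLGs of 2VO 1, where 51.5 was measured. With this level subtracted from each library, Ctss was above the sham mean in 6 of 11 non-immune classes, where before it was in 11. For Laptm5 the change after subtraction was 0.21 in ECs and 0.26 in OPCs, but 4.79 in OLGs, where 4.1 CPM remained in 2VO 1 against a sham mean of 0.149, and 3.30 in CPECs, where 0.373 remained against 0.0379.

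The same subtraction left other genes with changes of varied size. In OLGs the microglial level corresponded to 96.6 of the 322 CPM of Ctsd, and the log2 fold change after subtraction was 0.75. It corresponded to 21.6 of the 791 CPM of Psap, which left 0.92. For Npc1 in OLGs it was 2.24 of 409 CPM. Ctsd changed by 0.43 in OPCs after subtraction and by 1.16 in NPCs. Over the 11 non-immune classes Npc1 stayed above the sham mean in 11, Scarb2 in 10, Ctsd in 9 and Psap in 9. These are values with no test.

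**Figure D4:**
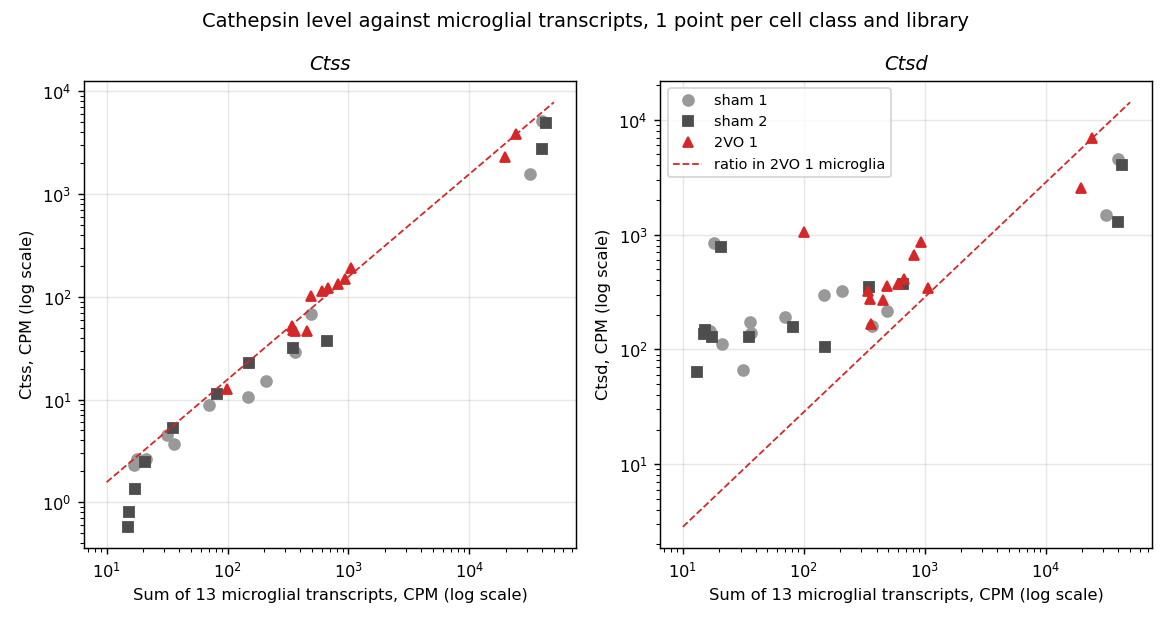
Ctss (first panel) and Ctsd (second panel) against the summed level of 13 microglial transcripts, both in CPM on log axes, with 1 point per cell class and library (points at 0 left out). The Ctss points of 2VO 1 lie between 10.3 and 20.6% of the sum, whereas Ctsd in classes of low sum stays at or above 63.6 CPM.

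OLGs also had 3 lysosomal genes called lower. Ctsk, which encodes the collagen-degrading cathepsin K, fell from 74.1 and 80.8 to 27.9 CPM, a change of −1.47 ± 0.21 (SE; edgeR adjusted p = 0.0308). Npc2, the soluble partner of Npc1, fell from 433 and 379 to 198 CPM, or −1.03 ± 0.19 (SE; edgeR adjusted p = 0.0328). Ctsl, the cathepsin L gene, fell from 261 and 236 to 138 CPM, or −0.85 ± 0.18 (SE; edgeR adjusted p = 0.0394). The OLG clusters were unequally filled: cluster 3 held 5.2% of the OLGs of sham 1, 25% of sham 2 and 77.6% of 2VO 1. Within cluster 3 alone 9 of 34 lysosomal genes were called higher and 2 lower, where 7.4 and 10.4% of all genes were, Ctsd changed by 1.56 (edgeR adjusted p = 0.00746) and Psap by 1.29 (0.0121), and the Ctsl change of −0.43 had an edgeR adjusted p of 0.162. Myelin transcripts, the defining genes of the class, summed to 113762, 74832 and 49181 CPM, with 4 of 12 called lower. Their part in these results was not tested.

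The Ctsl change was larger in OPCs than in OLGs, and Ctsh was called in OPCs and not in OLGs. In OLGs the 2VO 1 level of Ctsh was also above the sham mean, by 17.2 CPM. Ctsl measured 1398, 683 and 287 CPM, a change of −1.86 ± 0.52 (SE; edgeR adjusted p = 0.0285), and leaving out sham 1 gave −1.27 and leaving out sham 2 gave −2.46. The sham libraries thus lay far apart, and 2VO 1 lay below both. Cluster 14, which held 26.6, 9.79 and 9.63% of the OPCs, had the highest plain Ctsl level at 2222, 2046 and 1162 CPM, and cluster 5 had 367, 327 and 278. Ctsh, the aminopeptidase cathepsin H, rose from 2.51 and 7.99 to 21.2 CPM, or 2.20 ± 0.61 (SE; edgeR adjusted p = 0.027), and leaving out sham 1 gave 1.38 and sham 2 2.89. Cluster 13 held 5.51, 11 and 76.6% of the OPCs and had plain Ctsh levels of 20.7, 70.2 and 32.5 CPM. In that cluster alone the Ctsh change was −0.49 (edgeR adjusted p = 0.603), the Ctsl change −1.54 (0.0599) and the Ctsd change 1.33 (0.0689).

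In ECs the called genes, beside Ctss and Laptm5, were Cd63, Lgmn and Ctsh. Cd63, a tetraspanin of late endosomes, was at 20.6, 20 and 46.5 CPM, a change of 1.20 ± 0.21 (SE; edgeR adjusted p = 0.0181), and 0.90 remained after the microglial level was subtracted. Lgmn, which encodes the asparagine endopeptidase that activates cathepsins, was at 26.1, 27.9 and 50.4 CPM, or 0.90 ± 0.19 (SE; edgeR adjusted p = 0.0428), with 0.36 remaining. Ctsh was lower, at 530, 484 and 274 CPM, or −0.89 ± 0.20 (SE; edgeR adjusted p = 0.0447), and its plain level was lowest in 2VO 1 in 5 of the 6 EC clusters. The exception was cluster 28, with 27.1, 18.5 and 94.6 CPM. Choroid plexus transcripts, where Cd63 is abundant, summed to 1880, 1569 and 3227 CPM in ECs, and myelin transcripts to 2217, 949 and 3850, with 1 of 7 and 3 of 12 called higher. Their part was not tested.

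CPECs had a single further call, Ctsf, the cathepsin F gene, at 24, 21.7 and 42.7 CPM with a change of 0.90 ± 0.21 (SE; edgeR adjusted p = 0.00474). With the microglial level subtracted it was 0.89, and with cells thinned to 1000 UMIs it was 0.08 (edgeR adjusted p = 0.961). In NPCs, where Ctsd and Psap were called, 2VO 1 had 37 cells and the lists of other cells were higher too. Microglial transcripts were at 31.4, 13.2 and 456 CPM, choroid plexus transcripts at 1423, 730 and 5299 with 2 of the 2 tested called higher, and endothelial transcripts at 496, 1094 and 2258 with 3 of 6. The part of these cells in the NPC values was not tested, apart from the microglial subtraction, which left Psap a change of 1.32.

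In microglia, the class with the highest lysosomal level, none of the 34 tested genes of the 35 passed the adjusted threshold. The smallest p was that of Lgmn, at 2462, 2412 and 1289 CPM with a change of −0.92 ± 0.23 (SE; edgeR adjusted p = 0.0644). Asah1, the acid ceramidase gene, measured 313, 327 and 183 CPM (−0.81, edgeR adjusted p = 0.0925), and Ctsh 674, 662 and 390 (−0.78, 0.0945). Ctsb, the cathepsin B gene, was at 1353, 963 and 2016 CPM and Ctsd at 4575, 4041 and 6929, both with an edgeR adjusted p of 0.115. The groups did not overlap for these 5 genes, 3 of them lower and 2 higher, and 11 of 34 lysosomal genes were above and 15 below both sham libraries, where 40.9 and 40.2% of all genes were. By cluster, plain Lgmn levels were 1555, 1810 and 1319 CPM in cluster 10 and 2677, 2458 and 2283 in cluster 17. Asah1 had 213, 228 and 185 CPM in cluster 10 and 333, 339 and 348 in cluster 17. For Ctsh they were 457, 433 and 392 in cluster 10 and 719, 700 and 793 in cluster 17. Ctsb had 1197, 1009 and 2240 in cluster 10 and 1321, 865 and 909 in cluster 17. The part of the cluster shares in the class changes was not tested. The summed level of the proteases was 18585, 16625 and 18283 CPM, with 2VO 1 between the sham libraries.

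Other transcripts moved in the microglia as well. Endothelial transcripts summed to 1112, 1495 and 4442 CPM, with 8 of 8 called higher, and genes that respond to cell dissociation to 26595, 26902 and 10879, with 4 of 11 called lower. Choroid plexus transcripts were at 2613, 1092 and 6000 CPM and myelin transcripts at 9719, 1396 and 9059. Their part in the lysosomal levels was not tested. Macrophages, with 19, 23 and 43 cells, had their smallest p-values for Man2b1, an alpha-mannosidase gene, at 364, 673 and 296 CPM, for Ctsd, for Psap at 780, 1122 and 1597, and for Lipa. In this class 7 of 7 endothelial transcripts tested were called higher, with sums of 381, 486 and 7562 CPM.

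In the remaining classes the members with the smallest p were mostly those already described. ASTs, with 40 cells in 2VO 1, had Ctsd, Ctss (15, 31.8 and 149 CPM), Ctsb (336, 353 and 623) and Laptm4a (528, 475 and 344). PERs had Ctss (0, 11.3 and 113 CPM), Ctsd, Scarb2 (114, 97.4 and 196) and Ctsh (204, 272 and 113). VLMCs had Ctss (10.6, 36.9 and 132 CPM), Ctsd, Psap (623, 618 and 1059) and Scarb2 (148, 130 and 223). Among neurons, Lamp2, the protein of chaperone-mediated autophagy, measured 66.4, 34.8 and 120 CPM in GLUTNs, and Ctsl 292, 378 and 101 in Cajal-Retzius neurons (edgeR adjusted p = 0.0839). Laptm4a, which encodes a small transmembrane protein of late endosomes and lysosomes, was below both sham libraries in 10 of 13 classes, yet 39.1% of the 1665 genes tested in every class were below both in at least 10.

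The same lysosomal pathway holds other genes, and these went in both directions. Of 199 tested pairs of a class and another soluble hydrolase gene, 5 were called higher and 2 lower, beside 2.57% higher and 3.64% lower over all genes and the 13 classes, and the sum of the 22 genes was above both sham libraries in 11 of 13 classes. Other membrane protein genes had 8 called higher and 4 lower of 149. In OLGs, Clcn7, a chloride-proton exchanger gene, was at 12.7, 11.3 and 26.9 CPM (edgeR adjusted p = 0.0421). In the same cells Tmem192 fell from 53.2 and 64.2 to 26.9 CPM (edgeR adjusted p = 0.0385), Litaf, an endosomal membrane protein gene, from 361 and 434 to 203 (0.039), and Laptm4b from 94.3 and 95 to 52.5 (0.0404).

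Genes of the proton pump and of the Ragulator platform, which anchors mTORC1 at the lysosome, were mostly lower where they were called. V-ATPase subunits had 14 pairs called lower and 1 higher of 213, and MiT/TFE factors and Ragulator 18 lower and 0 higher of 139. Both sums were below the 2 sham libraries in 12 of 13 classes, VLMCs excepted. Of the 1665 single genes tested in every class, 16.1% were below both in at least 12. A sum leans on its most abundant genes and is not directly comparable with that share. In CPECs the V-ATPase sum fell, yet 10 of its genes had a change above 0 and 8 below. In OLGs 2 were above 0 and 16 below. OLGs had 6 of 18 V-ATPase genes called lower, such as Atp6v1g1 at 358, 348 and 141 CPM (−1.32 ± 0.18 SE, edgeR adjusted p = 0.0308) and Atp6v0b at 819, 781 and 384 (−1.06 ± 0.18 SE, edgeR adjusted p = 0.0311). Rraga, a Rag GTPase gene, fell in OLGs from 142 and 146 to 39.4 CPM (−1.87 ± 0.19 SE, edgeR adjusted p = 0.0308) and in OPCs from 197 and 190 to 73.3 (−1.40 ± 0.36 SE, edgeR adjusted p = 0.0214). In NPCs Atp6v1f fell from 386 and 340 to 93.6 CPM, while Atp6v0a1, a membrane subunit gene, was called higher there at 85.2, 81.1 and 234 CPM (edgeR adjusted p = 0.0318). It is named as the only call in that direction, chosen after its values were seen.

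The autophagy list had 13 pairs called lower and 0 higher of 207, by edgeR at the same threshold. Gabarapl2, a gene of the ATG8 family that coats autophagosomes, fell in OLGs from 717 and 744 to 253 CPM (−1.53 ± 0.18 SE, edgeR adjusted p = 0.0308) and in NPCs from 467 and 425 to 117 (−1.93 ± 0.30 SE, edgeR adjusted p = 0.00441). The sorting list had 7 called lower and 1 higher of 157. Vps29, a retromer gene, was lower in OLGs, OPCs, CPECs and GLUTNs, for example at 202, 195 and 73.3 CPM in OLGs. The mannose 6-phosphate receptor gene Igf2r was called higher in OPCs, at 15.5, 14 and 32.6 CPM (edgeR adjusted p = 0.0436). These shares stand beside 11.4% of all genes called lower in OLGs, 8.66% in OPCs and 6.46% in NPCs.

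Cathepsin inhibitors were called in 4 classes. Cst3, the cystatin C gene, fell in microglia from 49913 and 59151 to 19144 CPM (−1.51 ± 0.26 SE, edgeR adjusted p = 0.0228), and Cst7, the cystatin F gene, was higher there at 4.95, 0 and 163 CPM (edgeR adjusted p = 0.00541). Cstb, the gene of an inhibitor in the cytosol, was lower in OLGs at 239, 217 and 74.7 CPM, in OPCs at 149, 93.5 and 45.1, and in CPECs at 180, 208 and 112. Gpnmb, a glycoprotein gene of phagocytes with a large lysosomal load, was at 0, 0 and 66.5 CPM in microglia (edgeR adjusted p = 0.0074). In OLGs and OPCs Cstb was called in the same direction as Ctsl and in the opposite direction to Ctsd.

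**Figure D5:**
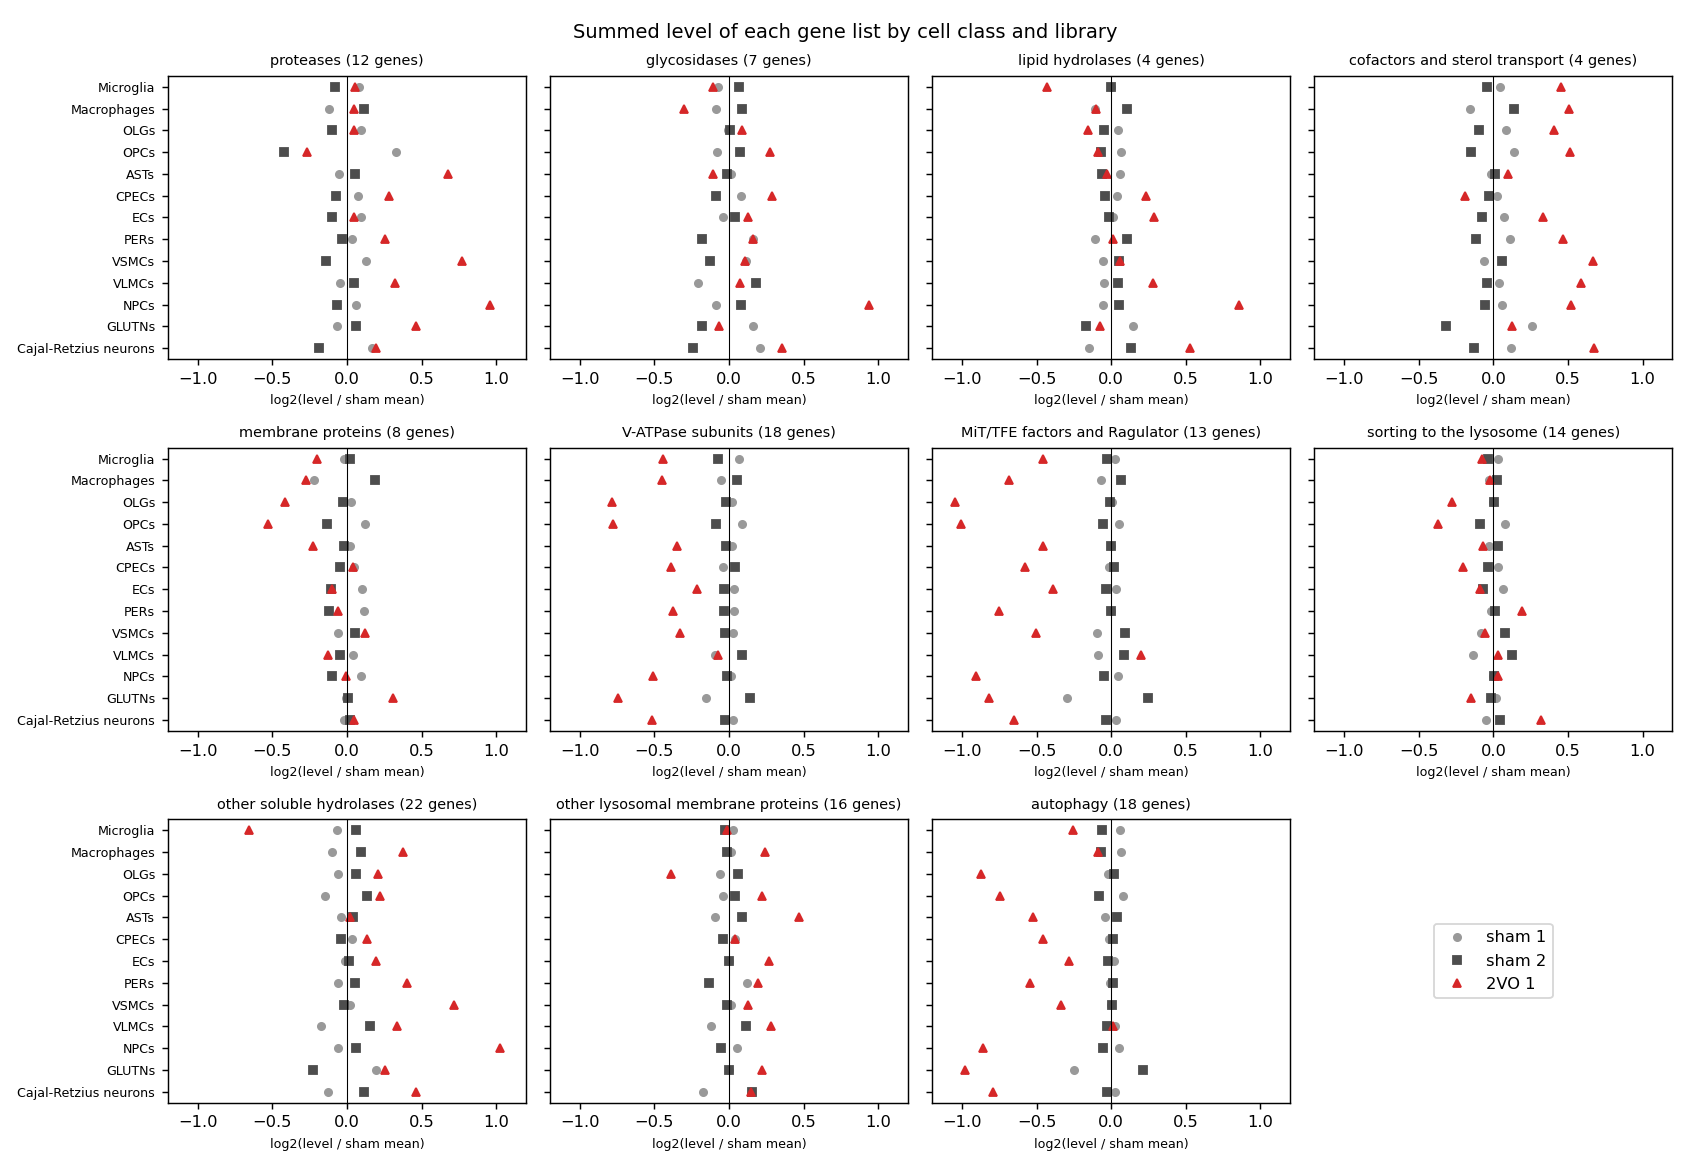
Summed level of each gene list by cell class and library, as log2 of the level over the sham mean (horizontal) with 1 point per library and 13 classes (vertical). V-ATPase, Ragulator and autophagy sums of 2VO 1 lie left of both sham points in 12 of 13 classes. Those of the other soluble hydrolases lie right of both in 11. A sum leans on its most abundant genes, and single genes of a list went both ways.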

How the data were processed

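Hippocampal cells of 2 sham mice and 1 2VO mouse were profiled with 10x 3′ chemistry. The deposited values are raw UMI counts per gene and barcode, which the authors made with Cell Ranger against GRCm38 (mm10). The submitters' notes also name Seurat 3.2.2. Whether depth was equalized and how cells were called before deposit is not given in the sources used here. Barcodes with at least 650 genes were kept and clustered with scanpy 1.11.5 (genes in at least 20 cells, 2000 variable genes, 30 principal components, 15 neighbours, Leiden resolution 1.0, seed 1). A cluster was named from at least 3 detected markers of a class, unless another class had more markers among its 10 leading genes or over 80% of the named class's share of markers, and 1 cluster stayed unnamed. Scrublet marked 102, 132 and 117 cells at a common score of 0.22, since its automatic threshold found almost none in 2VO 1. They stayed in the values given. Counts were summed per library and class, filtered by edgeR's filterByExpr, scaled by TMM factors and tested with edgeR 4.0.16 (R 4.3.3; glmQLFit, glmQLFTest) in classes with at least 10 cells in each library, with Benjamini-Hochberg adjustment over all genes of the class. DESeq2 1.42.0 was an alternative, and the test was checked on simulated data. Library totals were 65287386, 40459614 and 18754480 UMIs. Intervals of levels are limited by the number of UMIs and by 1 residual degree of freedom.

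In each class the called genes were named, and otherwise up to 4 with the smallest p. Of the other lists up to 4 called genes per class were named. For levels, the genes with the widest gap between the 2 highest classes and with the smallest range were named per role. Plain CPM (no TMM factor) describe levels and clusters. The genes and lists were chosen with earlier results of these data known. The subtraction of microglial levels and the fit within 1 cluster were chosen after seeing the data. Promoters came from RefSeq. Some results of the wider pathway are not reported here.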

Additional observations from a re-analysis of the deposited data

Results flagged for a closer look

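The change in Ctsh differed between OPCs, where it was called higher, and ECs, where it was called lower. In a joint edgeR fit of both classes the log2 fold change in OPCs minus that in ECs was 3.10 ± 0.59 (SE; edgeR adjusted p = 0.00288). Of 13760 genes in that fit, 933 had an edgeR adjusted p below 0.05 for such a difference, with no limit on the fold. The pair of classes was chosen because Ctsh was called in opposite directions in them, and both classes come from the same 3 libraries. The OPC change rested on 21, 20 and 39 UMIs and was −0.49 within OPC cluster 13.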

How the results depend on the processing

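Of 94 values of the number of lysosomal genes called under alternatives, 60 stayed within 1.5 times the reported count and 34 moved. A class that stayed at 0 calls, such as macrophages in every setting, is counted in the 60. That number thus says little on how well calls held. Of 120 medians, 106 kept their value within the spread between sham libraries. Leaving out the doublets took the OLG calls from 9 to 0, with the lowest edgeR adjusted p at 0.0502, where 0% of all genes were called. It gave 4 genes called in microglia (1 higher and 3 lower, or 11.8% of those tested where 20.3% of all genes were called). There were 3 in ASTs (9.09%, against 3.22%), 9 in ECs (26.5%, against 6.32%), 1 in PERs (3.03%, against 2.04%) and 6 in VSMCs (18.2%, against 3.13%). With no filter on low counts 4 genes were called in microglia (11.4%, against 9.7% of all genes), 3 in ASTs (8.57%, against 2.37%) and 10 in ECs (28.6%, against 7.54%). That setting gave 2 in PERs (5.71%, against 1.97%), 5 in VSMCs (14.3%, against 1.72%) and 1 in VLMCs (2.86%, against 0.767%). It gave 4 in NPCs (11.4%, against 8.69%) and 1 in Cajal-Retzius neurons (2.86%, against 2.44%). With DESeq2 size factors the counts were 3 in OPCs (8.57%, against 8.34% of all genes) and 3 in ECs (8.82%, against 1.97%). They were 1 in VSMCs (3.03%, against 0.291%) and 2 in Cajal-Retzius neurons (9.09%, against 5.03%). The DESeq2 test called 2 in OPCs (5.71%, against 3.83% of all genes), 1 in ASTs (3.03%, against 0.104%) and 1 in CPECs (2.86%, against 4.88%). It called 1 in ECs (2.94%, against 0.695%) and 0 in NPCs (against 1.79%). That test gave no adjusted p for Ctss and Laptm5 in CPECs or Ctsd in NPCs. At least 200 genes per barcode gave 0 in OPCs (0% of all genes too), 2 in ASTs (6.06%, against 0.298%) and 1 in GLUTNs (3.57%, against 3.53%). Resolution 2.0 gave 11 in OPCs (31.4%, against 29.1% of all genes), 1 in ASTs (3.03%, against 0.0753%) and 1 in ECs (2.94%, against 0.284%). It also gave 1 in GLUTNs (3.45%, against 1.88%) and a VLMC median of −0.32. Cells thinned to 1000 UMIs gave 1 in microglia (3.23%, against 7% of all genes), 0 in CPECs (0% of all genes too) and 3 in VSMCs (16.7%, against 2.55%). The medians of the thinned cells were 0.24 in macrophages, −0.12 in ASTs, 0.45 in CPECs, −0.11 in PERs, 0.92 in VSMCs, 1.44 in NPCs, 0.14 in GLUTNs and 0.86 in Cajal-Retzius neurons. Thinning also left fewer lysosomal genes to test, with 4 in GLUTNs, 7 in Cajal-Retzius neurons, 12 in NPCs and 18 in VSMCs. Without thinning these numbers were 26, 22, 26 and 33, so the medians are over different genes. The VSMC median without doublets was 0.65. Within 1 cluster, 1 gene was called in OPCs (2.94%, against 6.52% of all genes), the microglial median was 0.24, and Ctsh in OPCs reversed to −0.49. The cause of these shifts was not tested.

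Over the alternatives that gave an adjusted p, 48 calls of the 25 pairs were lost. The DESeq2 test kept 9 pairs and lost 5, the remaining 11 having no adjusted p, and 9 were lost both with doublets removed and with at least 200 genes per barcode. Ctss in ECs was called under 7 of 7 alternatives and Ctsd in NPCs under 6 of 6, but Ctsh and Lgmn in ECs under 2 of 7 each and Ctsl in OLGs under 3 of 7. Leaving out 1 sham library gave medians from −0.01 to 0.06 in ASTs, from 0.14 to 0.42 in CPECs, from −0.31 to −0.00 in macrophages and from −0.06 to 0.23 in OPCs, whose direction turned without sham 2. The OLG median turned too, from −0.17 to 0.02. These values also lack the filter on low counts, so they differ from the reported medians in more than the library left out. With every library and no such filter the median was 0.04 in ASTs, 0.11 in OPCs and −0.15 in OLGs. No paired analysis was possible because the groups share only 1 replicate number among the libraries analysed. With 1 residual degree of freedom, a missing call does not show that levels were equal, and low levels such as those of Ctss in sham OPCs rest on few UMIs.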
